A study of Mus musculus with 48 samples.

Results

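Neutrophils and monocytes carry transcripts that brain cells mostly lack, among them those of granule proteins and of the receptor CCR2. The set described here holds 8 such genes, which are S100a8, S100a9, Lcn2, Ngp, Camp, Retnlg, Elane and Ccr2, of 34797 gene names on the array, read by 9 of its 55681 probes. They were selected on measured values, as markers that were higher in O4+ cells of IL1B pups at P5 in an earlier reading of these arrays. The values of that contrast are therefore given as a description with no test.

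Male swiss pups by the labels (OF1 in the study's methods) received PBS or the cytokine IL1B at 10 ng/g into the abdomen from P1 to P4, and a last injection at P5. O4+ cells, which are oligodendrocyte progenitors and immature oligodendrocytes, were taken with magnetic beads. CD11B+ cells, mainly microglia, then came from the remaining cells of the same animals, and tissue was pooled over animals. The 8 groups of 6 arrays are PBS and IL1B pups at P5, killed 2 h after the last injection by the labels (4 h in the study's methods), and at P10, in each of the O4+ and the CD11B+ samples.

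Values are log2 intensities, so that a difference of 1 is 2-fold. Calls come from limma over all 55681 probes, at an adjusted p under 0.05 and a ratio of group medians over 1.5. The share of probes well above background ran from 52.9% to 65.4% over the 48 arrays. On P10 CD11B+ PBS replicate 6, all 8 members lay above the other 5 arrays of the group, by a median of 2.36, where 18.4% of all probes did so and the median over all probes was -0.01. On P5 CD11B+ IL1B replicate 3, whose median correlation with its group was 0.962, 7 of the 8 members were lowest, as were 41.7% of all probes. Of 5 neuron genes only Snap25, the brightest, lay above the other 5 arrays there, which brought their summed level to 15.92 against 12.88 to 13.14, while the median of the 5 was -0.05 from the others. Results of the members that rest on either array are given with and without it, and counts of the lists without it are given only in part.

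As background, neutrophils ripen in the bone marrow and pack their proteins into granules in a set order: elastase and myeloperoxidase first, lactoferrin, cathelicidin and lipocalin later, and gelatinase last. S100A8 and S100A9 fill the cytosol of mature neutrophils and classical monocytes, and are released as alarmins. In the healthy brain such cells stay mostly within vessels and at the borders, while microglia are the resident myeloid cells, and IL1B in the circulation drives neutrophils out of the marrow and turns on lipocalin 2 in glia and vessels.

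The sorted samples carried the markers of their labels. At P10 in PBS pups, 9 of 10 microglia genes were called higher and 10 of 10 oligodendrocyte lineage genes lower in CD11B+ than in O4+ cells. Siglech was the microglia gene without a call. All 10 microglia genes were also well above background on every O4+ array. Of 7 neutrophil receptors, Ly6g was well above background on 3 of 6 arrays of PBS O4+ cells at either age and on 6 of 6 in each IL1B O4+ group. Cxcr1 was so on no O4+ array, Fpr2 only with IL1B at P5, and Csf3r was the brightest in every O4+ group. At P10 none of the 7 was called between IL1B and PBS O4+ cells. More cells of a type and more RNA per cell cannot be told apart in these bulk samples.

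**Figure D1:**
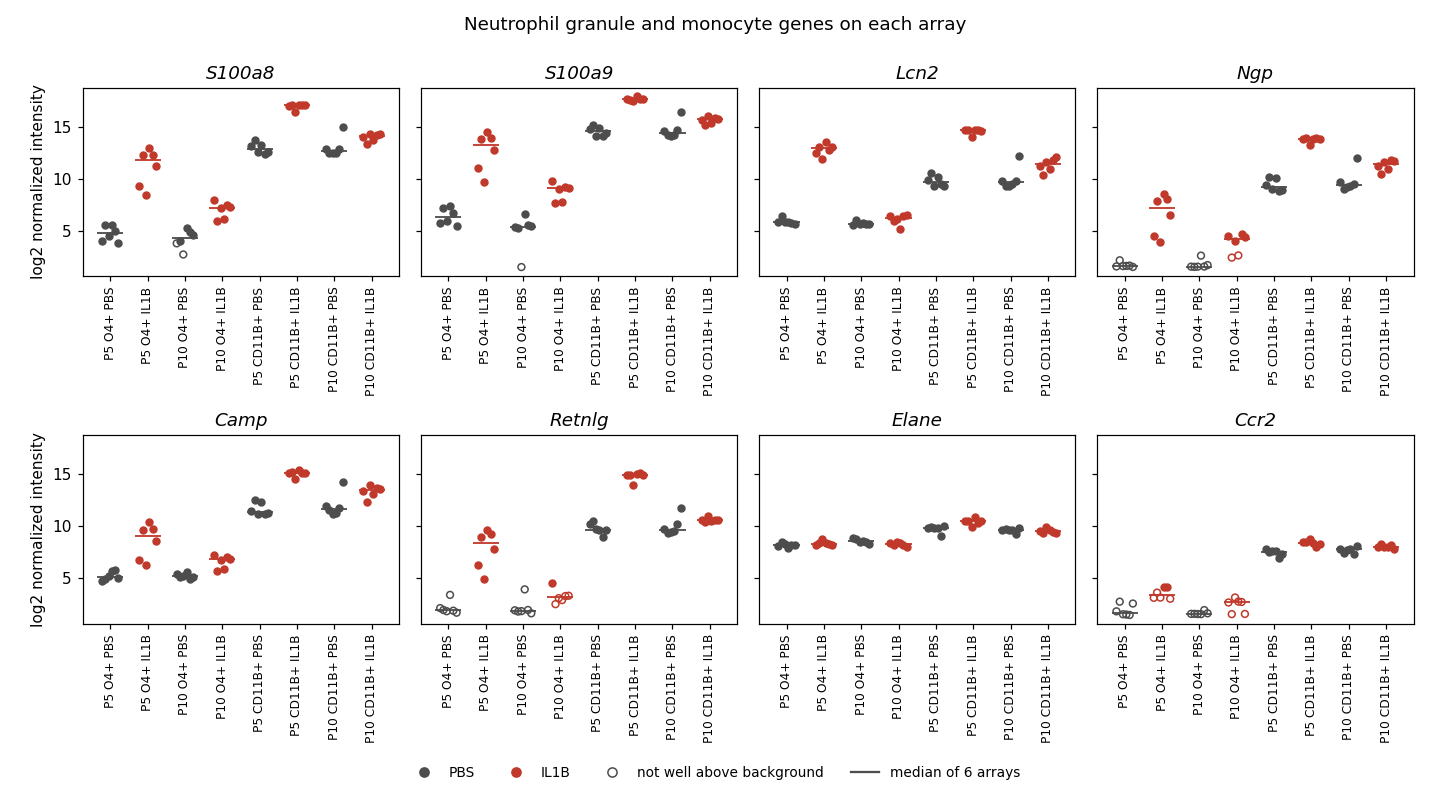
Log2 intensity of each member on all 48 arrays, with open circles where the probe was not well above background. In 7 of the 8 panels the CD11B+ groups sit above the O4+ PBS groups by a wide margin, while Elane spans a narrow range.

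S100a8 and S100a9 encode the 2 chains of calprotectin, which binds calcium and zinc and signals through TLR4. Both probes lie on chromosome 3, at chr3:90473778-90473837 and chr3:90496573-90496632 (mm9). The 250 bases before each start, from RefSeq (GRCm38.p6, all 8 members matched), are shown because several members moved together in the P5 O4+ IL1B arrays. Capitals mark matches on either strand to kappaB (GGG, any 5 bases, CC), C/EBP (TTGC, any 2 bases, AA), STAT (TTC, any 3 bases, GAA) or ETS/PU.1 (GAGGAA). These 4 motifs had a match in 45.8%, 9.56%, 7.02% and 23.3% of all 32851 promoters, in that order. S100a8 (chr3:90668821-90669070, plus strand) held ETS/PU.1 matches at -170 to -165 and at -36 to -31, and S100a9 (chr3:90695722-90695971, minus strand) a C/EBP match at -236 to -229. A match describes the letters and says nothing of binding.
S100a8: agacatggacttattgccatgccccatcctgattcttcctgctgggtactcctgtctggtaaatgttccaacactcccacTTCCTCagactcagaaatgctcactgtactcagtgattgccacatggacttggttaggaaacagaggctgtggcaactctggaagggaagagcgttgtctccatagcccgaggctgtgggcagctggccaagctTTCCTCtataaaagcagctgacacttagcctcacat
S100a9: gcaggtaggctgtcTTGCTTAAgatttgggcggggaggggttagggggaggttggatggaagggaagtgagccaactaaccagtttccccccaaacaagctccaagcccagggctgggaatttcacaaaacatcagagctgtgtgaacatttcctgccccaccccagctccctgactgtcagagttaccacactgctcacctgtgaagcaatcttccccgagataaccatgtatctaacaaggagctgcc

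S100a8 ran from 3.86 to 5.59 (median 4.77) on the P5 O4+ PBS arrays and from 8.47 to 12.98 (median 11.78) on the P5 O4+ IL1B arrays. At P10 the O4+ values were 2.74 to 5.29 (median 4.31) after PBS and 5.98 to 8.02 (median 7.26) after IL1B. PBS and IL1B arrays of O4+ cells did not overlap at either age, and replicates 1 and 3 were the low arrays of P5 O4+ IL1B, at 9.32 and 8.47. In CD11B+ cells at P5 the probe read 12.36 to 13.73 (median 12.92) after PBS and 16.44 to 17.14 (median 17.08) after IL1B. At P10 it read 12.47 to 15.01 (median 12.69) after PBS and 13.32 to 14.37 (median 14.16) after IL1B. Ordered by median, P5 CD11B+ IL1B stood first, clear of every other group, and the 2 O4+ PBS groups last, with overlapping ranges. The 2 CD11B+ PBS groups overlapped each other, the P10 CD11B+ IL1B arrays and the highest P5 O4+ IL1B array.

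S100a9, the partner chain, had the same order of groups. The P5 O4+ arrays read 5.51 to 7.43 (median 6.33) after PBS, and 9.75 to 14.48 (median 13.31) after IL1B. At P10 these ranges were 1.53 to 6.59 (median 5.43) and 7.68 to 9.80 (median 9.09). PBS and IL1B ranges did not overlap at either age, and P10 O4+ PBS replicate 3 was low at 1.53, below its background limit. In CD11B+ cells S100a9 read 14.09 to 15.19 (median 14.60) and 17.48 to 17.95 (median 17.66) at P5, for PBS and IL1B. The P10 values were 14.12 to 16.48 (median 14.41) and 15.15 to 16.01 (median 15.74), ranges that overlap through PBS replicate 6 at 16.48.

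Ngp, Camp and Retnlg encode neutrophilic granule protein, the antimicrobial cathelicidin and a resistin-like hormone of marrow and neutrophils. Ngp and Camp lie on chromosome 9, as does Ccr2. The Ngp promoter (chr9:110419558-110419807, plus strand) held C/EBP matches at -138 to -131 and at -11 to -4, that of Retnlg (chr16:48872358-48872607, plus strand) a C/EBP match at -246 to -239, and that of Camp (chr9:109849457-109849706, minus strand) no match.
Ngp: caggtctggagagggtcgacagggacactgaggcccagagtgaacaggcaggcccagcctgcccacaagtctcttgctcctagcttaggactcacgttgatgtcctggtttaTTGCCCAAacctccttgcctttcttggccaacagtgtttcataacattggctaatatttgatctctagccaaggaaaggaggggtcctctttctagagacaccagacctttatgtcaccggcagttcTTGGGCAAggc
Camp: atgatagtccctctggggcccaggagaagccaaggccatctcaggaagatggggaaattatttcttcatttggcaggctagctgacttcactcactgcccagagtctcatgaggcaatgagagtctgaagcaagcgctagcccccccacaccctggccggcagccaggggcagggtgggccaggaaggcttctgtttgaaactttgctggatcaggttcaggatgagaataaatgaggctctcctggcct
Retnlg: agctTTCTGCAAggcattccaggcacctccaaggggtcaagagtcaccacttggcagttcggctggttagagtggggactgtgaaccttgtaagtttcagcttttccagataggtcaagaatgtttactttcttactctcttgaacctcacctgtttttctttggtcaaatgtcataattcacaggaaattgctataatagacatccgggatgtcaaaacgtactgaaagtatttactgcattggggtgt

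Ngp and Retnlg were well above background on 0 of 12 PBS O4+ arrays over both ages. With IL1B at P5 in O4+ cells, Ngp read 3.93 to 8.51 (median 7.21) and Retnlg 4.97 to 9.63 (median 8.43), well above background on all 6 arrays. At P10 with IL1B, Ngp read 2.44 to 4.70 (median 4.21) and was well above background on 4 of 6 arrays, and Retnlg, at 2.53 to 4.61 (median 3.21), on 1 of 6. Both were therefore well above background in O4+ samples only with IL1B. The CD11B+ arrays at P5 gave 8.86 to 10.23 (median 9.20) for Ngp after PBS, and 13.22 to 13.97 (median 13.83) after IL1B. At P10 its ranges were 9.07 to 12.06 (median 9.42) and 10.43 to 11.85 (median 11.43). Retnlg read 8.97 to 10.56 (median 9.69) and 14.03 to 15.11 (median 14.94) at P5, and 9.37 to 11.76 (median 9.64) and 10.44 to 10.96 (median 10.62) at P10. For both genes the P5 groups were apart and the P10 groups overlapped, with PBS replicate 6 the highest of its group.

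Camp was read by 2 probes, and the brighter is counted. In P5 O4+ cells the PBS arrays read 4.79 to 5.83 (median 5.15) and the IL1B arrays 6.34 to 10.44 (median 9.10). At P10 the O4+ ranges were 4.99 to 5.60 (median 5.19) and 5.72 to 7.29 (median 6.83). CD11B+ cells gave 11.15 to 12.50 (median 11.42) and 14.61 to 15.39 (median 15.17) at P5, and 11.24 to 14.25 (median 11.70) and 12.39 to 13.95 (median 13.52) at P10. PBS and IL1B ranges overlapped only in CD11B+ cells at P10, where replicate 6 was the PBS array at 14.25. The other probe had P5 O4+ medians of 4.85 and 7.75 and P10 O4+ ranges that overlapped, 4.78 to 5.08 and 5.00 to 6.06.

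Lcn2 encodes lipocalin 2, a secreted protein of the secondary granules that withholds iron from bacteria and that stimulated glia also make. Its promoter (chr2:32387740-32387989, minus strand) was the only member promoter of 8 with a kappaB match, at -102 to -93, and held a C/EBP match at -216 to -209 and an ETS/PU.1 match at -20 to -15. Over the 8 members, C/EBP had a match in 4, ETS/PU.1 in 3 and STAT in 0.
Lcn2: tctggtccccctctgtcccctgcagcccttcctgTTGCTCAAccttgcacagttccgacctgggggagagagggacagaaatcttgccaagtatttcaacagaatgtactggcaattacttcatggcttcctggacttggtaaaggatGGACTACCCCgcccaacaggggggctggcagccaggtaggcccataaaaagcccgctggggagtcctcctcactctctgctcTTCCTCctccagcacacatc

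In O4+ cells at P5, Lcn2 read 5.63 to 6.42 (median 5.85) after PBS and 11.94 to 13.53 (median 12.95) after IL1B. At P10 the ranges were 5.54 to 6.10 (median 5.67) and 5.22 to 6.5 (median 6.27). The P5 groups were far apart and the P10 groups overlapped. CD11B+ values were 9.33 to 10.59 (median 9.70) and 14.06 to 14.73 (median 14.68) at P5, and 9.28 to 12.22 (median 9.66) and 10.40 to 12.08 (median 11.43) at P10. The overlap at P10 again came from PBS replicate 6, at 12.22.

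Elane encodes neutrophil elastase of the primary granules, and Ccr2 the chemokine receptor by which classical monocytes leave the marrow. Elane stayed between 7.97 and 8.85 in all 4 O4+ groups and between 9.07 and 10.89 in all 4 CD11B+ groups, well above background on every array. In O4+ PBS cells at P5, 5 of 6 other primary granule genes (Prtn3, Ctsg, Prss57, Ms4a3, Fcnb) were well above background on no array, so the Elane probe did not follow the other genes of its granule there. Ccr2 was dim in O4+ cells, well above background on 2 of 6 P5 IL1B arrays and on none of the other 18. In CD11B+ cells it read 6.95 to 7.85 (median 7.57) and 8.07 to 8.79 (median 8.41) at P5, and 7.39 to 8.15 (median 7.79) and 7.80 to 8.34 (median 8.04) at P10. PBS and IL1B arrays of Ccr2 were apart at P5 and overlapped at P10.

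In O4+ cells at P5, within hours of the last dose, granule and alarmin transcripts stood far above those of PBS pups. Among the genes measured in both groups lipocalin 2 had the largest mean difference. The values of several granule genes differed greatly from array to array. Elastase hardly moved, and CCR2 came to the edge of detection. The neutrophil-linked stefins, the receptors of formyl peptides and the acute-phase protein SAA3 went the same way. Members were chosen on this contrast and 6 of 10 microglia genes were higher with it as well, and the part of other cells in it was not tested.

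The mean difference was 6.91 for Lcn2 (120-fold), 6.36 for S100a8 (82.2-fold), 6.22 for S100a9 (74.4-fold) and 3.32 for Camp (10.0-fold). Against the lowest value well above background on the PBS arrays, Retnlg was at least 21.2-fold higher, Ngp at least 8.76-fold and Ccr2 at least 1.09-fold. These sizes depend on the background correction. With normexp background correction the log2 differences were 5.85 for Lcn2, 4.72 for S100a8, 2.19 for Retnlg, 1.57 for Ngp and 0.17 for Ccr2. The limits of Retnlg and Ngp therefore hold only for the values used here. Elane differed by 0.20, with overlapping groups. On 7 of 8 members the IL1B arrays all lay above the PBS arrays, as they did for 4.63% of all probes, and the fit over all probes called 3.49% of them higher and 1.52% lower. The median difference over all probes was -0.04. Within slide 4 (1 IL1B array, 2 PBS) the differences were 5.13 for S100a8, 6.70 for Lcn2 and 1.59 for Camp. Within slide 1 (1 against 4) they were 7.31, 7.09 and 4.33.

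Related genes moved to unequal extents in that contrast. All 6 stefins, small protease inhibitors of which several are made by neutrophils, passed the thresholds upward. Of the secondary and gelatinase granule list 5 of 8 were higher, led by Ltf (at least 16-fold), and of the primary granule list 1 of 6, Mpo (3.83-fold). Neutrophil receptors gave 5 of 7, among them Fpr2 (at least 5.78-fold), Cxcr2 (2.52-fold) and Ly6g (2.34-fold), while Csf3r, the brightest, kept a median of 16.63 with PBS and 16.65 with IL1B. The summed receptor level, which Csf3r sets, was 16.42 to 16.87 and 16.48 to 16.77. Monocyte genes gave 3 of 9, among them Plac8 (3.32-fold) and Itgal (2.16-fold), acute-phase genes 5 of 10 (Saa3 at least 10.5-fold, Hp 8.80-fold, Lrg1 6.60-fold, and Orm1, dim in both groups) and other S100 genes 0 of 14, all with 0 lower. Among ligands that call in such cells 7 of 9 were higher, led by Ccl12 (15.4-fold) and Cxcl5 (8.68-fold), and among myeloid transcription factors 5 of 6, led by Cebpb (5.16-fold). Of 4 receptors for the secreted members Tlr4 was higher (1.89-fold).

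Markers of other cells on the same arrays were as follows. Of 10 microglia genes 6 were higher, led by C1qa (3.25-fold). Their summed level went from 18.03 to 18.33 with PBS and from 18.75 to 19.03 with IL1B. Siglech was the brightest after PBS and Csf1r after IL1B. Siglech was not called between the cell types at P10, so these sums do not stand for microglia alone. Erythroid genes gave 0 of 4, with summed levels of 15.49 to 16.81 and 15.11 to 17.60 and Hba-a1 the brightest. Lymphocyte genes gave 2 of 6 higher (Cd79b, Ms4a1) and platelet genes 1 of 5 (Gp9). Endothelial genes gave 3 of 5 lower (Cldn5, Tek, Cdh5), and oligodendrocyte, astrocyte and neuron genes none of 10, 5 and 5 in either direction. What part these cells had in the values of the members was not tested.

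**Figure D2:**
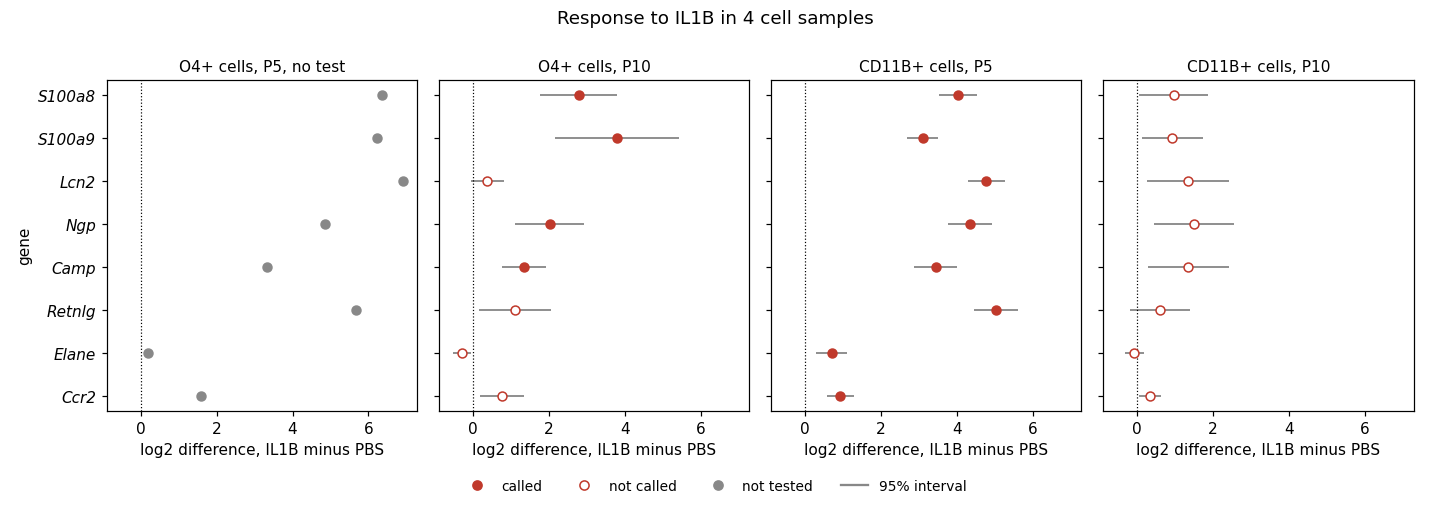
Log2 difference of each member between IL1B and PBS arrays, with confidence intervals where a test was made. At P5 in O4+ cells Ngp, Retnlg and Ccr2 were not well above background with PBS, so their points depend on the background. Intervals at P10 in CD11B+ cells are wide because of PBS replicate 6.

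Among the 6 IL1B arrays of O4+ cells at P5 the granule genes varied together. Those arrays fell into 4 high and 2 low ones, and the low ones were low for S100a8, S100a9, Ngp, Camp and Retnlg alike. Lipocalin 2 was also lowest on these 2 and varied much less. Elastase and CCR2 followed less closely over the 6 arrays. With 6 arrays a correlation rests on few points.

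Pearson's r with S100a8 was 1.00 for S100a9, Ngp and Camp and 0.99 for Retnlg over the 6 arrays, given as a description with no test because these arrays chose the members. The slopes were 1.02, 1.07, 0.92 and 1.01 log2 units per unit of S100a8. For Lcn2 r was 0.92 with a slope of 0.28, for Ccr2 0.78 and for Elane -0.44. Without the 2 arrays farthest from the median of S100a8, r was 1.00, 0.99, 1.00 and 0.98 for the 4 genes, 0.52 for Lcn2, 0.89 for Ccr2 and 0.88 for Elane. Spearman's rho was 0.94 for S100a9, Ngp, Camp, Retnlg and Lcn2, 0.6 for Ccr2 and 0.14 for Elane. Ccr2 was dim on 4 of the 6 arrays.

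Erythroid and stefin levels moved in the same arrays. The low replicates 1 and 3 also had the lowest summed erythroid level, 15.25 and 15.11 against 16.30 to 17.60 on the other 4, and the lowest stefin level, 11.05 and 9.96 against 12.77 to 14.62. The microglia level was 19.03 and 18.94 on them and 18.75 to 18.95 on the others. The part of blood cells in the spread was not tested.

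**Figure D3:**
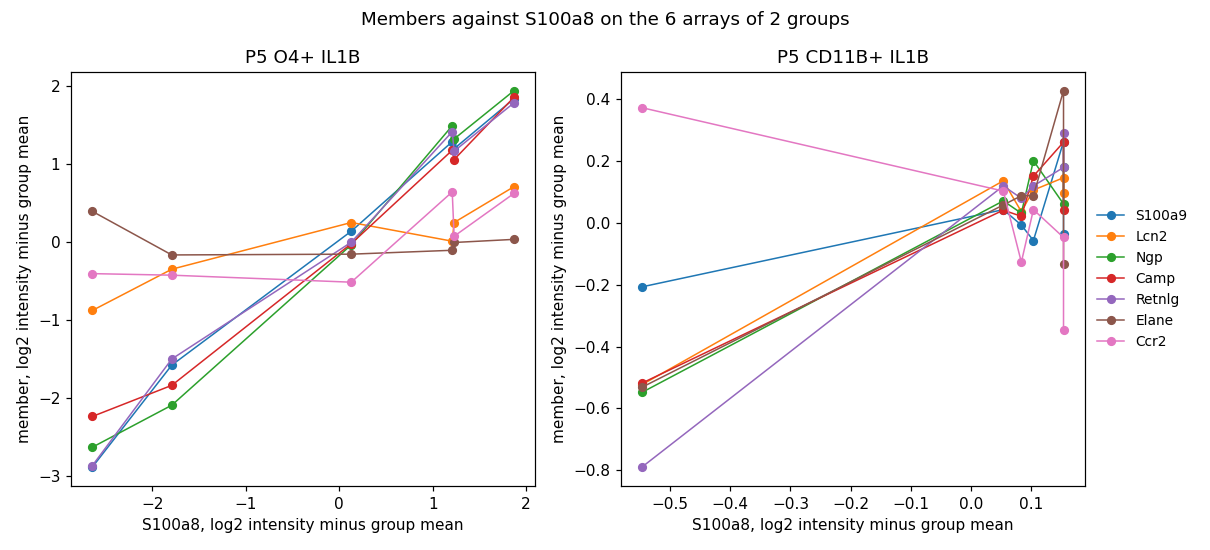
Each member against S100a8 on the 6 IL1B arrays of a cell type at P5, both as log2 distance from the group mean. In O4+ cells S100a9, Ngp, Camp and Retnlg share a line of slope near 1 and Lcn2 a flatter one, and in CD11B+ cells replicate 3 lies apart from the other 5 arrays.

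In CD11B+ cells at P5 whether a relation passed the exact permutation test over 6 arrays depended on the adjustment and the processing. The planned one took in all 14 relations, among them those of the arrays that chose the members, and by the permutation test passed Retnlg (r 0.99, adjusted p = 0.0194), Ccr2 (-0.82, 0.0361) and Camp (0.96, 0.0462). With normexp Retnlg and Camp did not pass it, and with 75th percentile scaling Ccr2 (r -0.55) did not while Lcn2 (0.94) and Elane (0.98) did. Adjusted over these 7 alone, a family chosen after seeing the data, none passed. Pearson's r was 0.99 for Retnlg (permutation test, adjusted p = 0.0583), 0.98 for Lcn2 (0.081), 0.97 for Ngp (0.0681), 0.96 for Camp (0.0616), 0.82 for Elane (0.081), 0.69 for S100a9 (0.231) and -0.82 for Ccr2 (0.0616). Without the 2 arrays farthest from the median, replicate 3 among them, r was 0.70, 0.27, 0.09, 0.92, 0.89, 0.66 and -0.44 in the same order.

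By P10, 5 days after the last dose, O4+ samples of IL1B pups still held more calprotectin and cathelicidin transcript than those of PBS pups. Lipocalin 2 was not called. All stefin genes of the list were higher as well. Haemoglobin transcripts were called higher too, a call lost without PBS replicate 3 at about the same size of difference. The response at P10 was not tested against that at P5 in O4+ cells, since the P5 arrays chose the members.

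limma called 4 of 8 members higher and 0 lower, against 2.62% and 1.51% of all probes, and 3 did not overlap, against 2.88% of all probes. S100a9 rose by 3.81 (14-fold, confidence interval 2.17 to 5.44, adjusted p = 0.00916 from limma), with 6 of 6 IL1B arrays above the PBS median. Without PBS replicate 3, which was below its background limit, the rise was 3.12 (8.7-fold, interval 2.21 to 4.03, adjusted p = 0.0034 from limma). S100a8, well above background on 4 of 6 PBS arrays, rose by 2.79 (6.91-fold, interval 1.77 to 3.81, adjusted p = 0.00495, limma, 6 of 6 arrays). Camp rose by 1.34 (2.54-fold, interval 0.76 to 1.93, adjusted p = 0.00947, limma, 6 of 6 arrays), and its other probe by 0.71 (adjusted p = 0.0325, limma, 6 of 6 arrays, overlapping groups). Ngp was called (adjusted p = 0.0115, limma, 6 of 6 arrays above the PBS median), and no fold is given because it was dim in PBS and the groups overlapped. With normexp Ngp missed the fold threshold. The median difference over all probes was -0.02.

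The other 4 members did not pass. Lcn2 differed by 0.38 (adjusted p = 0.292, limma, 5 of 6 arrays higher), Elane by -0.28 (0.142, 6 of 6 lower), and no size is given for Retnlg (0.134) and Ccr2, which were dim in PBS. Leaving out a single array brought the count to 5 in 4 cases. By limma the added gene was Lcn2 without IL1B replicate 4 (0.56, adjusted p = 0.0229), Retnlg without PBS replicate 4 (adjusted p = 0.0175), and without IL1B replicate 2 or 6 Ccr2 (adjusted p = 0.0401 and 0.0321), which is dim on every array. With all 8 groups in 1 fit limma called 4 members, among them the dim Ccr2 (adjusted p = 0.0232) and not Camp (1.34, adjusted p = 0.0504). Within slide 5 (2 IL1B arrays, 5 PBS) the differences were 2.84 for S100a8, 3.86 for S100a9 and 1.22 for Camp, and within slide 9 (1 against 1) 2.70, 3.66 and 1.79. With slide as a fixed block limma called these 3, and not Ngp (adjusted p = 0.0604).

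Among the lists, limma called 6 of 6 stefins higher, of which 5 were dim on some or all of the PBS arrays, 2 of 8 secondary and gelatinase granule genes (Ltf at least 1.41-fold, Mmp9 dim) and 1 of 6 primary granule genes (Mpo at least 1.13-fold). Of the monocyte genes 2 of 9 were higher (Plac8 2.47-fold, Ms4a4c 1.69-fold), of the ligands 4 of 9, led by Cxcl1 (4.27-fold) and Cxcl2 (3.37-fold), and of the transcription factors 2 of 6 (Cebpb 2.06-fold, Cebpa 1.90-fold). Neutrophil receptors (7), acute-phase genes (10), other S100 genes (14) and receptors for the secreted members (4) gave 0 calls.

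For other cells, erythroid genes gave 2 of 4 higher (Hba-a1 2.44-fold, adjusted p = 0.0409 from limma, 6 of 6 arrays; Hbb-b1 2.27-fold, adjusted p = 0.0499 from limma, 6 of 6 arrays), with summed levels of 14.43 to 16.05 with PBS and 15.41 to 17.50 with IL1B. Without PBS replicate 3 limma called 0 of the 4, at a median of 1.08 against 1.10 with it. Microglia genes gave 3 of 10, among them Aif1 (1.65-fold) and C1qa (1.62-fold). Their summed levels were 17.37 to 17.91 and 17.57 to 18.07, with Siglech, not called between the cell types, the brightest. Astrocyte genes gave 3 of 5 higher, oligodendrocyte genes 2 of 10 higher and 1 lower, and lymphocyte, platelet, endothelial and neuron genes none of 6, 5, 5 and 5. Replicates 2 and 4 of the IL1B group were the low arrays for S100a8, at 5.98 and 6.13, with erythroid levels of 16.63 and 15.41, and replicate 1, the highest at 8.02, had the highest erythroid level, 17.50. The part of these cells in the difference was not tested.

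In CD11B+ cells at P5 all 8 members rose with IL1B, elastase not in every alternative. RETNLG, lipocalin 2 and NGP rose most, the calprotectin chains and cathelicidin less, and CCR2 and elastase least. The Elane probe, at 0.7, rose less than the median of the other primary granule genes, 2.82. The primary granule genes of the list and most of its neutrophil receptors and myeloid transcription factors were called higher as well. A subset of microglia genes fell. CD11B is carried by neutrophils, monocytes and microglia, so the sort does not separate them.

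limma called 8 of 8 members higher, against 3.98% of all probes (5.01% were called lower), and 7 did not overlap, against 5.87%. Retnlg rose by 5.03 (32.7-fold, interval 4.46 to 5.60, adjusted p = 2.81e-07), Lcn2 by 4.77 (27.3-fold, interval 4.29 to 5.26, 1.33e-07) and Ngp by 4.34 (20.3-fold, 7.38e-07), each on 6 of 6 arrays by limma. S100a8 rose by 4.02 (16.3-fold, adjusted p = 4.89e-07), Camp by 3.44 (10.9-fold, 3.35e-06) and S100a9 by 3.1 (8.57-fold, 6.19e-07), also on 6 of 6 arrays by limma. Ccr2 rose by 0.93 (1.91-fold, adjusted p = 0.00122, limma, 6 of 6 arrays) and Elane by 0.70 (1.62-fold, interval 0.29 to 1.10, adjusted p = 0.0188, limma, 6 of 6 arrays above the PBS median, overlapping groups). The median was 3.73 over the members and -0.02 over all probes. Without IL1B replicate 3 limma called 8 of 8, against 4.43% of all probes, and all 8 were then apart, against 8.12%, with Elane higher by 0.80. Within slide 4 (4 IL1B arrays, 1 PBS) the differences were 5.34 for Retnlg and for Lcn2 and 4.48 for S100a8, and with slide as a fixed block limma did not call Elane (0.54, adjusted p = 0.261), nor did it with matrix values (0.57, 0.162).

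The related lists followed in CD11B+ cells at P5. limma called higher 6 of 6 primary granule genes (median 2.82, Ctsg 11.3-fold, Mpo 7.15-fold), 8 of 8 secondary and gelatinase granule genes (median 3.80, Cd177 55.0-fold, Mmp8 39.4-fold, Ltf 22.6-fold), 6 of 6 stefins (median 4.29) and 6 of 7 neutrophil receptors (median 3.08, Ly6g 37.1-fold, Cxcr2 4.40-fold). Csf3r was the receptor without a call, Cxcr1 was called but dim on every array, and the summed level of the list was 15.62 to 16.24 with PBS and 16.31 to 16.96 with IL1B. Ly6g was well above background on 3 of 6 PBS arrays and 6 of 6 IL1B arrays. Monocyte genes gave 5 of 9, among them Plac8 (4.99-fold) and Treml4 (2.69-fold), with Ms4a4c, the brightest probe of the list, not called. Acute-phase genes gave 7 of 10 (Saa3 62.4-fold, Lrg1 55.1-fold, Hp 12.5-fold) and transcription factors 4 of 6 (Gfi1 5.72-fold, Cebpe 5.30-fold). Other S100 genes gave 4 of 14 higher and 2 lower, ligands 3 of 9 higher (Cxcl3 6.35-fold, Cxcl5 6.04-fold, Ccl12 3.98-fold) and Cxcl1 lower (1.59-fold), and receptors for the secreted members 1 of 4 (Ager 1.54-fold).

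Of 10 microglia genes, 3 fell (Gpr34 1.76-fold, P2ry12 1.59-fold, Sall1 1.49-fold by means) and 0 rose, and their summed level was 19.86 to 19.94 with PBS and 19.70 to 19.77 with IL1B. Erythroid genes gave 0 of 4 higher and 1 lower (Hba-a1 1.68-fold), with summed levels of 16.03 to 17.57 and 15.46 to 16.10. Without IL1B replicate 3 no erythroid gene was called, at a median of -0.6. Lymphocyte genes gave 1 of 6 higher, oligodendrocyte genes 2 of 10 higher and 2 lower, endothelial genes 3 of 5 lower, and platelet, astrocyte and neuron genes none of 5 each. The part of other cells in the rise was not tested.

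**Figure D4:**
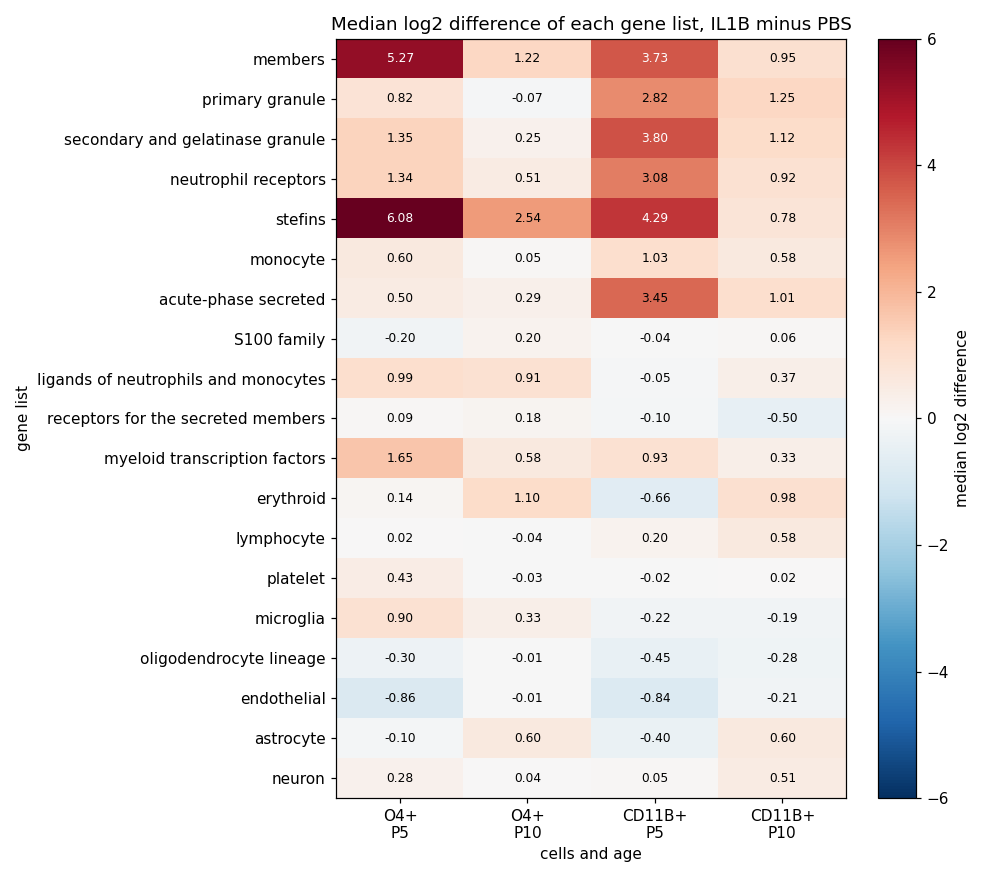
Median log2 difference between IL1B and PBS arrays of each gene list in the 4 cell and age settings. Stefins have the highest median of the lists in CD11B+ cells at P5, where the granule, acute-phase and neutrophil receptor lists are high as well, and in O4+ cells at P10. Genes that were dim in a group are part of the medians.

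In CD11B+ cells at P10 no member was called, and without a slide block that result rests on PBS replicate 6. On this array the summed granule and stefin levels stood above those of every IL1B array, and the acute-phase level within their range. Without it, calprotectin, cathelicidin, lipocalin 2, NGP and RETNLG were all higher with IL1B 5 days after the last dose. Elastase and CCR2 were not called either way. With slide as a fixed block no member was called without replicate 6 either. Of the PBS arrays of this group, 4 lie on slide 6, which holds no CD11B+ array of IL1B pups. Why this PBS array stood apart was not tested.

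limma called 0 of 8 members at P10 in CD11B+ cells, against 1.01% of all probes higher and 0.986% lower. At an unadjusted p under 0.05 there were 6, and by the equal-variance test of the methods 0. The differences were 1.49 for Ngp (adjusted p = 0.0884), 1.35 for Camp (0.12) and Lcn2 (0.125), 0.96 for S100a8 (interval 0.05 to 1.86, 0.19), 0.93 for S100a9 (0.154) and 0.61 for Retnlg (0.366), each with 6 of 6 IL1B arrays above the PBS median by limma. Ccr2 differed by 0.34 (adjusted p = 0.156, limma, 6 of 6 arrays) and Elane by -0.07 (0.759, 4 of 6 lower). The median was 0.95 over the members and 0 over all probes.

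Without PBS replicate 6 limma called 6 of 8 members higher, against 2.46% of all probes, and these 6 did not overlap, against 5.07% of all probes. By limma Ngp was then higher by 1.94 (3.85-fold, adjusted p = 0.0016), Lcn2 by 1.80 (3.47-fold, 0.00399), Camp by 1.79 (3.46-fold, 0.00297), S100a8 by 1.35 (2.55-fold, 0.00242), S100a9 by 1.28 (2.43-fold, 0.00174) and Retnlg by 0.96 (1.95-fold, 0.0051), all on 6 of 6 arrays. Ccr2 (0.43, adjusted p = 0.044) missed the fold threshold and Elane (-0.02, 0.927) the limma test. Slide 6 carries 4 of the PBS samples and no CD11B+ sample from IL1B pups. On slide 7, which holds 5 IL1B arrays and 2 of PBS, replicate 6 among them, the difference of S100a8 was 0.02 with replicate 6 and 1.10 without it. For Retnlg it was -0.38 with that array and 0.38 without it. With slide as a fixed block limma called 0 members without replicate 6 (adjusted p 0.204 for S100a8 and 0.144 for Ngp). With slide as a random block, an analysis chosen after seeing the data, limma called 6 without replicate 6 and 0 with it.

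**Figure D5:**
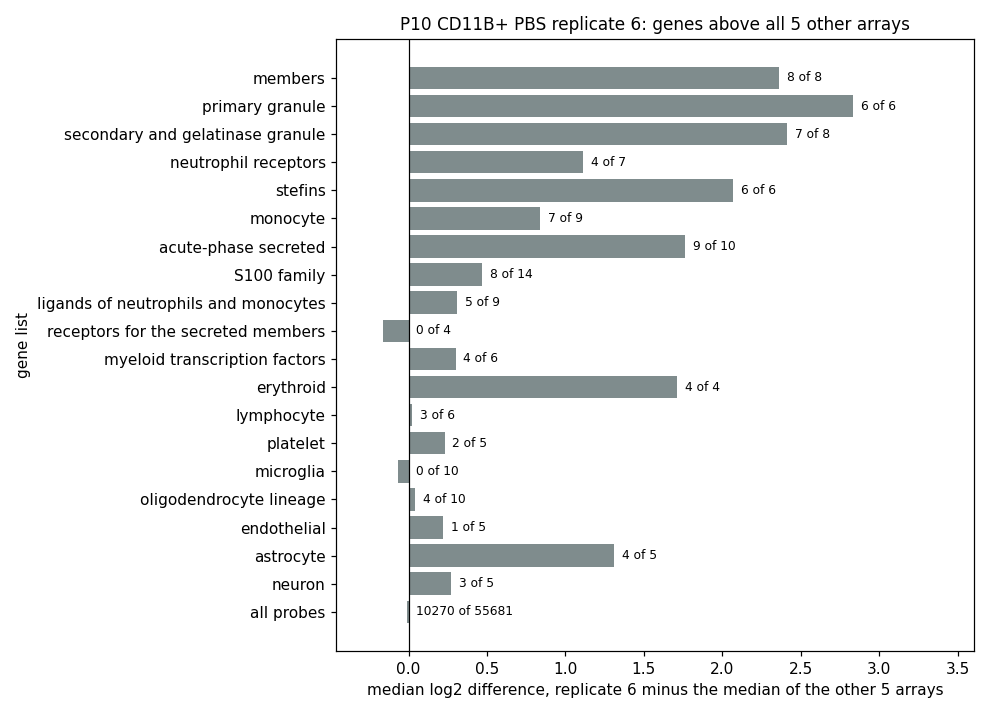
Median log2 distance of P10 CD11B+ PBS replicate 6 from the other 5 arrays of its group, by gene list, with the number of genes above all 5. Granule, stefin, acute-phase, erythroid and astrocyte lists stand high and microglia genes do not.

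Replicate 6 stood above the other 5 PBS arrays for 6 of 6 primary granule genes (median 2.83), 7 of 8 secondary and gelatinase granule genes (2.41), 6 of 6 stefins (2.07), 9 of 10 acute-phase genes (1.76), 4 of 4 erythroid genes (1.71), 4 of 5 astrocyte genes (1.31) and 7 of 9 monocyte genes (0.84). Among 7 neutrophil receptors 4 lay above and 1 below the other 5 arrays (median 1.11). Some genes of these lists, among them Prss57, Orm1, Orm3 and Ptx3, were dim on every array of the group. It did so for 0 of 10 microglia genes (-0.07), of which 6 lay below the other 5 arrays. Its summed erythroid level was 17.57, against 15.55 to 16.60 on the other PBS arrays and 16.96 to 17.48 with IL1B, with Hba-a1 the brightest.

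Of the lists at P10 in CD11B+ cells, limma called Fpr2 (2.44-fold) and Il1r2 (1.89-fold) higher and Cxcr2 lower (1.56-fold) among 7 neutrophil receptors, Treml4 higher (1.85-fold) among 9 monocyte genes, and Saa3 (7.58-fold) and C3 (2.43-fold) among 10 acute-phase genes. It also called Csf1 higher (1.71-fold) among 9 ligands and Ager lower (1.87-fold) among 4 receptors for the secreted members. Primary granule, secondary and gelatinase granule, stefin, other S100, transcription factor, erythroid, platelet, microglia and endothelial genes gave 0 calls. Lymphocyte genes gave 1 of 6 higher, astrocyte genes 1 of 5 higher, oligodendrocyte genes 1 of 10 lower and neuron genes 1 of 5 lower. Without PBS replicate 6 the calls higher were 6 of 6 primary granule genes, 6 of 8 secondary and gelatinase granule genes, 6 of 6 stefins, 7 of 10 acute-phase genes, 5 of 9 monocyte genes, 3 of 4 erythroid and 4 of 5 astrocyte genes, with 0 of 10 microglia genes. Neutrophil receptors then gave 4 of 7 higher and 1 lower, other S100 genes 3 of 14 higher, and transcription factors 2 of 6 higher and 1 lower. Oligodendrocyte genes gave 3 of 10 lower and neuron genes 1 of 5 each way. Prss57 of the primary granule list and Orm1 of the acute-phase list are among the calls higher without replicate 6 and were dim in both groups.

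The response of CD11B+ cells to IL1B was smaller at P10 than at P5. That held for the granule, alarmin and lipocalin genes and, by a small margin, for elastase, and was not shown for CCR2. The stefins, most late granule genes and most neutrophil receptors of the lists passed in the same direction, and of the primary granule genes cathepsin G did. Haemoglobin genes went the other way. No slide holds both ages. With slide as a fixed block the granule, alarmin and lipocalin genes still passed and elastase did not. That fit rests on few PBS arrays, P10 PBS replicate 6 among them.

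The difference between the responses (P10 minus P5, limma interaction over 24 CD11B+ arrays, no fold threshold) passed for 7 of 8 members, all lower, against 6.16% of all probes lower and 10.4% higher. By limma it was -4.42 for Retnlg (adjusted p = 8.92e-07), -3.42 for Lcn2 (0.00014), -3.07 for S100a8 (1e-04), -2.85 for Ngp (0.000964), -2.17 for S100a9 (0.000785), -2.09 for Camp (0.0117) and -0.77 for Elane (0.0201). For each of the 7 the mean response was smaller at P10, as for S100a8 with 0.96 against 4.02. Ccr2 did not pass (-0.59, adjusted p = 0.0607 from limma). It passed in limma when any of 5 arrays was left out, with -0.66 and adjusted p = 0.0347 without P5 PBS replicate 1, 0.0364 without P5 IL1B replicate 5, 0.0424 and 0.0356 without P10 PBS replicates 2 and 5, and -0.64 and 0.047 without P10 IL1B replicate 2. By limma it also passed with normexp (-0.5, adjusted p = 0.0328) and with only probes well above background (-0.59, 0.032). Without P10 PBS replicate 6 limma called 7 members, with -4.07 for Retnlg, -2.98 for Lcn2 and -2.68 for S100a8. The median was -2.51 over the members and 0.01 over all probes. With slide as a fixed block 6 passed, each with a larger difference, as for Lcn2 (-5.16), Ngp (-4.53) and Camp (-3.61). Elane failed with the slide block (-0.5, adjusted p = 0.496 from limma), as it did with matrix values (-0.58, 0.218). The blocked fit rests on slide 7 at P10 (5 IL1B arrays, 2 PBS, replicate 6 among them) and slide 4 at P5 (4 against 1). The S100a8 response was 0.02 on slide 7, 1.1 there without replicate 6, and 4.48 on slide 4. The larger differences therefore depend on replicate 6 and few PBS arrays.

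In the lists the same test gave a lower response at P10 for 6 of 6 stefins, 7 of 8 secondary and gelatinase granule genes, 6 of 7 neutrophil receptors (Cxcr1 among them, dim on every CD11B+ array), 7 of 10 acute-phase genes, 3 of 6 transcription factors, 4 of 14 other S100 genes, 1 of 6 primary granule genes (Ctsg) and 1 of 4 receptors for the secreted members. Monocyte genes gave 2 of 9 lower and 1 higher, and ligands 4 of 9 each way. Erythroid genes gave 3 of 4 higher and microglia genes 1 of 10 higher. The other lists gave at most 2 in a direction.

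With PBS alone, no member was called between the ages in CD11B+ cells. With IL1B they held less at P10, most of all of RETNLG. Genes of every granule class and all stefins were lower too, and haemoglobin and some microglia genes higher. A few microglia genes were higher at P10 with PBS alone as well. Age, time since the last dose and slide cannot be told apart in these comparisons.

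In PBS pups limma called 0 of 8 members between P10 and P5, against 4.49% of all probes higher and 3.47% lower, with 0 at an unadjusted p under 0.05 and 0 by the equal-variance test of the methods. The median difference was 0.22 over the members and 0 over all probes, and without P10 PBS replicate 6 the count was again 0, against 3.95% of all probes lower, with S100a8 at -0.31 (interval -0.84 to 0.21). In IL1B pups 7 of 8 members were called lower and 0 higher at P10, against 7.83% and 9.04% of all probes, and 6 did not overlap, against 8.77%. Retnlg fell by 4.19 (18.3-fold, adjusted p = 6.74e-08), Lcn2 by 3.22 (9.33-fold, 5.29e-06) and S100a8 by 2.99 (7.93-fold, 1.15e-06), on 6 of 6 arrays each by limma. Ngp fell by 2.45 (5.48-fold, adjusted p = 1.76e-05), S100a9 by 2.04 (4.11-fold, 1.74e-06), Camp by 1.75 (3.36-fold, 0.000192) and Elane by 0.88 (1.85-fold, 0.000888, overlapping groups), also on 6 of 6 arrays by limma. Ccr2 differed by -0.34 (adjusted p = 0.0518, limma, 6 of 6 lower). The median was -2.24 over the members and 0.03 over all probes. Without P5 IL1B replicate 3, limma again called 7 lower, against 8.69% of all probes, and all 7 were then apart, against 12%.

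Lower at P10 with IL1B were 8 of 8 secondary and gelatinase granule genes, 6 of 6 stefins (median -3.58), 6 of 7 neutrophil receptors (with Cxcr1, dim in both groups), 5 of 6 primary granule genes, 8 of 10 acute-phase genes and 4 of 9 monocyte genes. Also lower were 7 of 9 ligands. Erythroid genes were higher in 3 of 4, microglia genes in 5 of 10, oligodendrocyte genes in 6 of 10 and astrocyte genes in 4 of 5. Without P5 IL1B replicate 3 the counts were 6 of 6 primary granule genes lower, and 3 of 4 erythroid, 4 of 10 microglia and 3 of 5 astrocyte genes higher. In PBS pups the counts lower were 0 of 6 primary granule genes, 0 of 8 secondary and gelatinase granule genes, 0 of 6 stefins and 1 of 7 receptors (Il1r2), while 7 of 9 ligands, among them Cxcl1 and Ccl2, were lower at P10. Without P10 PBS replicate 6 these counts were 2 of 6 (Mpo, Ms4a3), 0 of 8, 0 of 6, 3 of 7 (Fpr1, Fpr2, Il1r2) and 7 of 9. Higher at P10 with PBS were 2 of 10 microglia genes (Tmem119, Sall1), or 3 of 10 without that array, and 6 of 10 oligodendrocyte genes either way. Erythroid and astrocyte genes gave none of 4 and 5.

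The members belong to the CD11B+ fraction far more than to the O4+ fraction. At P10 without IL1B every member was higher there, elastase by the least. The distance was smaller with IL1B for the calprotectin genes, and for lipocalin 2 at P5 alone. For cathelicidin it was about the same, or larger at P10 if PBS replicate 6 is left out. Most microglia and monocyte genes of the lists and all their stefins were higher in the CD11B+ fraction as well. Gaps at P5 share arrays with the contrast that chose the members, and gaps with IL1B at P10 were not tested, so both are descriptions.

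limma called 8 of 8 members higher in CD11B+ than in O4+ cells of PBS pups at P10, against 20.2% of all probes (22.2% lower), and all 8 did not overlap, against 21.7%. The difference was 9.75 for S100a9 (adjusted p = 2.44e-07), 8.82 for S100a8 (1.73e-08), 6.77 for Camp (4.69e-08), 4.27 for Lcn2 (3.12e-06) and 1.05 for Elane (2.08-fold, 6.68e-06), with 6 of 6 CD11B+ arrays higher by limma. Ngp was at least 62.1-fold, Retnlg at least 68.6-fold and Ccr2 at least 14.6-fold higher (adjusted p = 1.45e-08, 3.01e-08 and 5.54e-12, limma, 6 of 6 arrays). Over all probes the median was 0. Without O4+ PBS replicate 3 the difference of S100a9 was 9.06, and without CD11B+ PBS replicate 6 it was 8.42 for S100a8, 9.39 for S100a9, 6.33 for Camp and 3.82 for Lcn2. From PBS to IL1B at P5 the gap went from 8.21 to 5.88 for S100a8, from 8.16 to 5.05 for S100a9, from 3.90 to 1.76 for Lcn2 and from 6.43 to 6.55 for Camp. At P10 it went from 8.82 to 6.98 for S100a8, from 4.27 to 5.24 for Lcn2 and from 6.77 to 6.78 for Camp.

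Higher in CD11B+ cells at P10 were 6 of 6 stefins, 5 of 6 primary granule genes, 7 of 8 secondary and gelatinase granule genes, 4 of 7 neutrophil receptors, 8 of 9 monocyte genes (Vcan was lower), 5 of 6 transcription factors, 6 of 9 ligands and 3 of 4 erythroid genes. The neutrophil receptors called were Fpr2, Cxcr2, Fpr1 and Il1r2. Those without a call were Ly6g, Csf3r and Cxcr1, the last dim on every array of both groups. Other S100 genes gave 1 of 14 higher and 7 lower.

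Over all 48 arrays the genes most like 4 of the members, among 25328, were the following. S100a8 was nearest to the stefins BC100530 (r 0.997), Stfa1 (0.996), Stfa2l1 (0.995), Gm5483 (0.993) and Stfa3 (0.992), and Ngp to Ltf (0.997), Stfa3 (0.991), Stfa2 (0.989), Stfa2l1 (0.985) and Plbd1 (0.985). Lcn2 was nearest to Irg1 (0.955), Tnip1 and Ccl12 (0.949 each), Cp (0.947) and Ch25h (0.945). Ccr2 had Hk2 (0.988), Man2b2 and Unc13d (0.987 each), Ly96 and Ifi35 (0.986 each). These r values mix cell types, ages and treatments that the 48 arrays share, so they are given as a description.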

How the data were processed

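The scanner files hold spot intensities that, per the file headers, Agilent Feature Extraction 10.7.3.1 background-subtracted. The deposited matrix holds ratio values, each the signal over the median of its array, with a largest log2 deviation of 1.86e-05 from the files. Signals were taken to log2 without 278 non-uniform spots, quantile-normalized over 48 arrays, with repeated spots averaged into 1 value per probe. A gene was read by the probe that bears its name in the array design with the most mean signal, at mm9 positions. Members and lists were chosen with earlier results of these data known.

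limma 3.58.1, run in R 4.3.3 (jsonlite 2.0.0; reading with version 1.17.8 of data.table), served for the group comparisons, with Benjamini-Hochberg adjustment over all probes. Correlations, promoters (RefSeq GRCm38.p6) and plots were made in Python 3.11.15 with numpy 2.4.6, pandas 2.3.3, scipy 1.17.1 and matplotlib 3.10.9. Where a probe was dim on every array of the base group, its fold is a lower limit. The code was tested on simulated data. Alternatives were other scalings, background correction, blocks and leaving out each array, and slide as a random block in the comparisons of IL1B with PBS was added after seeing the data. With 6 arrays a group, small differences are measured with little precision.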

Additional observations from a re-analysis of the deposited data

Results flagged for a closer look

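In 20 of 64 sets of 6 arrays, a single array lay apart from the rest of its group by the size of the gap, where chance marks about 1 in 20 groups. P5 CD11B+ IL1B replicate 3 was the low array for S100a8 (16.44), Lcn2 (14.06), Ngp (13.22), Camp (14.61) and Retnlg (14.03). P10 CD11B+ PBS replicate 6 was the high array for S100a8 (15.01), S100a9 (16.48), Lcn2 (12.22), Ngp (12.06), Camp (14.25) and Retnlg (11.76).

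Other arrays stood apart for 1 or 2 genes. P10 O4+ PBS replicate 3 was low for S100a9 (1.53, below its background limit). P5 O4+ PBS replicate 2 was high for Lcn2 (6.42) and Ngp (2.18), replicate 4 of that group for Retnlg (3.42), P10 O4+ PBS replicate 4 for Ngp (2.63) and Retnlg (3.95), and P10 O4+ PBS replicate 5 for Ccr2 (1.96), the last 5 of these values being dim. Elane was high on P5 O4+ IL1B replicate 3 (8.81) and low on P5 CD11B+ PBS replicate 5 (9.07).

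The response to IL1B in CD11B+ cells differed between P10 and P5 by the interaction test for S100a8 (-3.07), S100a9 (-2.17), Lcn2 (-3.42), Ngp (-2.85), Camp (-2.09), Retnlg (-4.42) and Elane (-0.77).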

How the results depend on the processing

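Of 781 alternatives to the log2 difference of a single member between 2 groups, a tally without interaction and correlation values, 755 gave the same reading, 13 a stronger, 5 a weaker, 6 a moved and 2 a reversed one. The count of 0 at P10 in CD11B+ cells was 1 with only probes well above background (Ngp), 1 with all 8 groups in 1 fit (Lcn2), 0 to 6 with each array left out, with the 6 coming without PBS replicate 6, and 6 without that array and with slide as a random block. With slide as a fixed block it was 0 without that array as well. With all arrays and that block Retnlg (-0.38) and Elane (0.03) reversed there. The correlation of Elane in P5 O4+ IL1B turned to 0.88 without 2 arrays. Adjusted over the 7 relations of P5 CD11B+ IL1B alone, an alternative chosen after seeing the data, 0 correlations passed. In O4+ cells at P10, Ngp, Retnlg and Ccr2 have no value when only probes well above background are kept. With normexp the P5 O4+ difference was 4.72 for S100a8, 5.85 for Lcn2, 1.57 for Ngp, 2.19 for Retnlg and 0.17 for Ccr2, and with matrix values 6.44 for Lcn2.

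In P5 O4+ cells, whose contrast chose the members, 7 lay past the thresholds with the replicate number as a block, 5 with slide as a fixed block and 6 with normexp. These 3 counts follow on the choice of members and support nothing. With the replicate block the other counts were 4 higher in P10 O4+ cells (2.14% of all probes), 8 higher in P5 CD11B+ cells (3.69%), 0 in P10 CD11B+ cells, 0 between ages with PBS, 7 lower between ages with IL1B (7.4%), 8 higher between cell types (20.2%) and 7 lower for the interaction (6.37%). As a check of pairing, residuals of arrays with the same number correlated by -0.06 to 0.52 between PBS and IL1B. Between cell types they did so by 0.03 to 0.15 and 0.07 to 0.4 at P10 and by 0.02 to 0.13 and -0.08 to 0.12 at P5, for PBS and IL1B. An array correlated best with its own number in the other cell type in 6 of 6 cases for P10 IL1B and 5 of 6 for P10 PBS. At P5 this held in 4 of 6 cases for PBS and 1 of 6 for IL1B. Not every pair was over 0.1 in any of these comparisons, so the number was used as a block in this alternative alone.

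The median over all probes moved from -0.04 to -0.17 in P5 O4+ cells with matrix values, from -0.02 to -0.19 (75th percentile) and -0.17 (matrix) in P10 O4+ cells, and from -0.02 to 0.11 (75th percentile) in P5 CD11B+ cells. It moved from 0.03 to -0.11 and 0.15 between ages with IL1B, from 0 to -0.15 (within a cell type) and 0.16 (matrix) between cell types, and from 0.01 to 0.14 for the interaction. The share of calls that were higher moved from 69.7% to 58.3% and 80.9% in P5 O4+ cells, from 63.5% to 42.6% and 51.6% in P10 O4+ cells, from 44.3% to 54.6% and 55% in P5 CD11B+ cells, from 50.7% to 64.7% in P10 CD11B+ cells, from 53.6% to 38.6% and 66.7% between ages with IL1B, from 47.7% to 34.7% between cell types and from 62.8% to 82.6% for the interaction. The cause was not tested.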
